A study of Homo sapiens with 6 samples.

Results

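Immediate early genes are transcribed within minutes of a stimulus without new protein synthesis, and most of their transcripts are short-lived. Here they are represented by 10 listed genes, EGR1, EGR2, EGR3, FOS, FOSB, FOSL1, JUN, JUNB, IER2 and DUSP1, and every probe set that the array's annotation assigns to 1 of them was taken. Of the 10 genes, 9 were matched to 16 probe sets, among 19775 genes and 41091 probe sets that name a single gene. No probe set was matched to EGR2, which was not analysed here. None of the 16 was shared with another named gene. JUN had 4 probe sets, EGR1 and DUSP1 had 3 each, and the other 6 genes had 1 each.

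RNA came from NTERA2/D1 cells, an established human teratocarcinoma line derived from a testicular tumour that behaves as pluripotent embryonal carcinoma. The control group (scrambled) was transfected with a nonspecific siRNA and the knockdown group with siRNA against human VAMP7, a vesicle SNARE. Transfection began 24 h after plating and lasted 72 h, in medium with serum and without phenol red, and all cells received an siRNA, since no untransfected group was used here. Each group held 3 arrays, which the sample titles call biological replicates 1 to 3, whereas the descriptions call every knockdown sample biological replicate 1. The labels do not say how the biological replicates were separated (by plate, passage or day), and the p-values reflect how far these samples scatter.

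Most of the list belongs to the EGR, FOS and JUN families of transcription factors. EGR1, EGR2 and EGR3 are zinc finger factors that bind GC-rich sites and are restrained by the NAB corepressors. FOS, FOSB and FOSL1 pair with JUN or JUNB through leucine zippers to form AP-1. IER2 encodes a nuclear protein, and DUSP1 a phosphatase that inactivates MAP kinases and so closes the loop on the signals that induce the others. In growing cells these genes are driven by serum response factor with its ETS-family partners, by CREB and by AP-1 itself, and they also answer to medium changes, transfection and the handling of cells at harvest. The values of each array are therefore given below.

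The promoters of 7 of the 9 genes were in the RefSeq promoter table (GRCh38.p14), which holds 250 bases before to 50 bases after each start; EGR3 and FOSL1 had no entry. By the probe set of highest mean, the arrays of EGR1 and DUSP1 separated in opposite directions, and those of FOS, FOSB and JUN overlapped. Shown are the 130 bases before the start of these genes. Each is written 5′ to 3′ in lower case, and capitals mark matches to the motifs listed after them.
EGR1, chr5:138465349-138465478, plus strand: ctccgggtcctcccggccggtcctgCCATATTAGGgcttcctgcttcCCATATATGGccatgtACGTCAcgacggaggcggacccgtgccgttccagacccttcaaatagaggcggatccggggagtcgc
DUSP1, chr5:172771196-172771325, minus strand: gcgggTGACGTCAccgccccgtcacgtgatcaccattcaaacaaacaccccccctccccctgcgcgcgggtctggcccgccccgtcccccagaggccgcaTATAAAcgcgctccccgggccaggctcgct
FOS, chr14:75278698-75278827, plus strand: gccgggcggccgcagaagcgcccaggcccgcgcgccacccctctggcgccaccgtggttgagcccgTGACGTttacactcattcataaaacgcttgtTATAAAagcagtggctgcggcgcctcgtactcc
FOSB, chr19:45467866-45467995, plus strand: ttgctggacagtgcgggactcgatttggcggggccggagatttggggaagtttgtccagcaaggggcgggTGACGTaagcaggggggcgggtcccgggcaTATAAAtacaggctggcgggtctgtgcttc
JUN, chr1:58784048-58784177, minus strand: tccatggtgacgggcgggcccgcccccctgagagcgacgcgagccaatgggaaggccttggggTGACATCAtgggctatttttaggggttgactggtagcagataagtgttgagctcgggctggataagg

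Motifs were searched on both strands of the 300-base windows. Sequence more than 250 bases before the start was not searched, so a motif absent here may lie farther upstream. The CArG box, the core of the serum response element, was found in EGR1 alone among the 7 genes, at positions -105 to -96 (CCATATTAGG) and -83 to -74 (CCATATATGG) counted from the start. Of 35116 promoters searched, 1.29% held a CArG box and 0.0313% held 2 or more. The cAMP response core TGACGT was found in EGR1, DUSP1, FOS and FOSB, and in 7.98% of all promoters. The longer TGACNTCA, which contains that core when N is G, was found in JUN and DUSP1 and in 7.72% of all promoters. A TATAAA match was present in DUSP1, FOS, FOSB and JUNB and in 11.5% of all promoters, and the EGR motif GCGNGGGCG in EGR1 and in 9.43%. The AP-1 motif TGANTCA matched in none of the 7 windows and in 7.71% of all promoters, and IER2 held none of these letters. A match is a description of sequence and was not tied to the values below.

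VAMP7, the targeted gene, fell. Its single probe set gave 2487, 2617 and 2741 intensity units on the scrambled arrays and 136.8, 175.4 and 148.6 on the knockdown arrays, so 5.87% of the control signal remained (log2 fold change -3.71, SE 0.11, adjusted p = 8.96e-05 in limma). Array medians ran from 58.85 to 67.54 units. Knockdown replicate 1 had the lowest mean correlation with its fellows, 0.9834, where the remaining 5 had 0.9892 to 0.9909, over genes at or above the median gene. Of 12 measured markers of embryonal carcinoma, 11 lay above the median gene, and their summed intensities overlapped, 89936 to 110923 in control and 97265 to 113217 in knockdown. SOX2 averaged 17212 ± 2357 and 19977 ± 1609 (SD, n = 3; overlapping). NANOG averaged 4839 ± 457 and 3968 ± 328 and GDF3 1810 ± 172 and 1500 ± 78.5, both without overlap (adjusted p = 0.740 and 0.739 in limma). None of 5 leukocyte markers lay at or above the median gene, while 3 of 9 fibroblast, 3 of 6 endothelial and 4 of 7 neural markers did. The summed intensities of these lists ran from 4394 to 4702 in control and 4374 to 5374 in knockdown for fibroblast, 3509 to 3747 and 3952 to 4538 for endothelial, 21016 to 24020 and 20988 to 23103 for neural and 94.3 to 193.5 and 107.6 to 249.5 for leukocyte markers. The endothelial sums did not overlap between the groups, which rested on VWF (1176 ± 44.2 and 1596 ± 240, SD, n = 3; adjusted p = 0.648 in limma); without VWF they were 2379 to 2565 and 2556 to 2675 and overlapped. The neural sums overlapped with all 7 markers. Without TUBB3 they were 7934 to 8329 in control and 6747 to 7816 in knockdown and did not overlap. Of all 39 measured markers the groups did not overlap for 5 (NANOG, GDF3, LUM, VWF and NEFL), against 13.0% of all genes. Limma called 0 of the markers, against 0.00506% of all genes. The part of these markers in the results below was not tested. In RNA from a whole culture, fewer cells expressing a gene and less RNA per cell cannot be told apart.

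None of the 9 immediate early genes passed the test between knockdown and control. Limma called 0 of 9 at an adjusted p under 0.05, against 0.00506% of all 19775 genes (VAMP7 alone), and the members' adjusted p ran from 0.727 to 0.999. At an unadjusted p under 0.05 there were 2 of 9, against 6.66% of all genes: EGR1 was higher, as 3.63% of all genes were, and DUSP1 lower, as 3.03% were. The arrays of the 2 groups did not overlap for 1 member on the higher side and 1 on the lower side, the same pair, against 6.68% and 6.29% of all genes. Of the 9, 5 had a fold change above 0, where 50.8% of all genes did, and their median was 0.0025, beside 0.0029 for all genes. Fold changes are differences of mean log2(intensity + 50), which understates changes of dim genes. EGR1, EGR3, JUN, IER2 and DUSP1 had a signal at or above the median gene, and FOS, FOSB, FOSL1 and JUNB were dimmer.

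**Figure D1:**
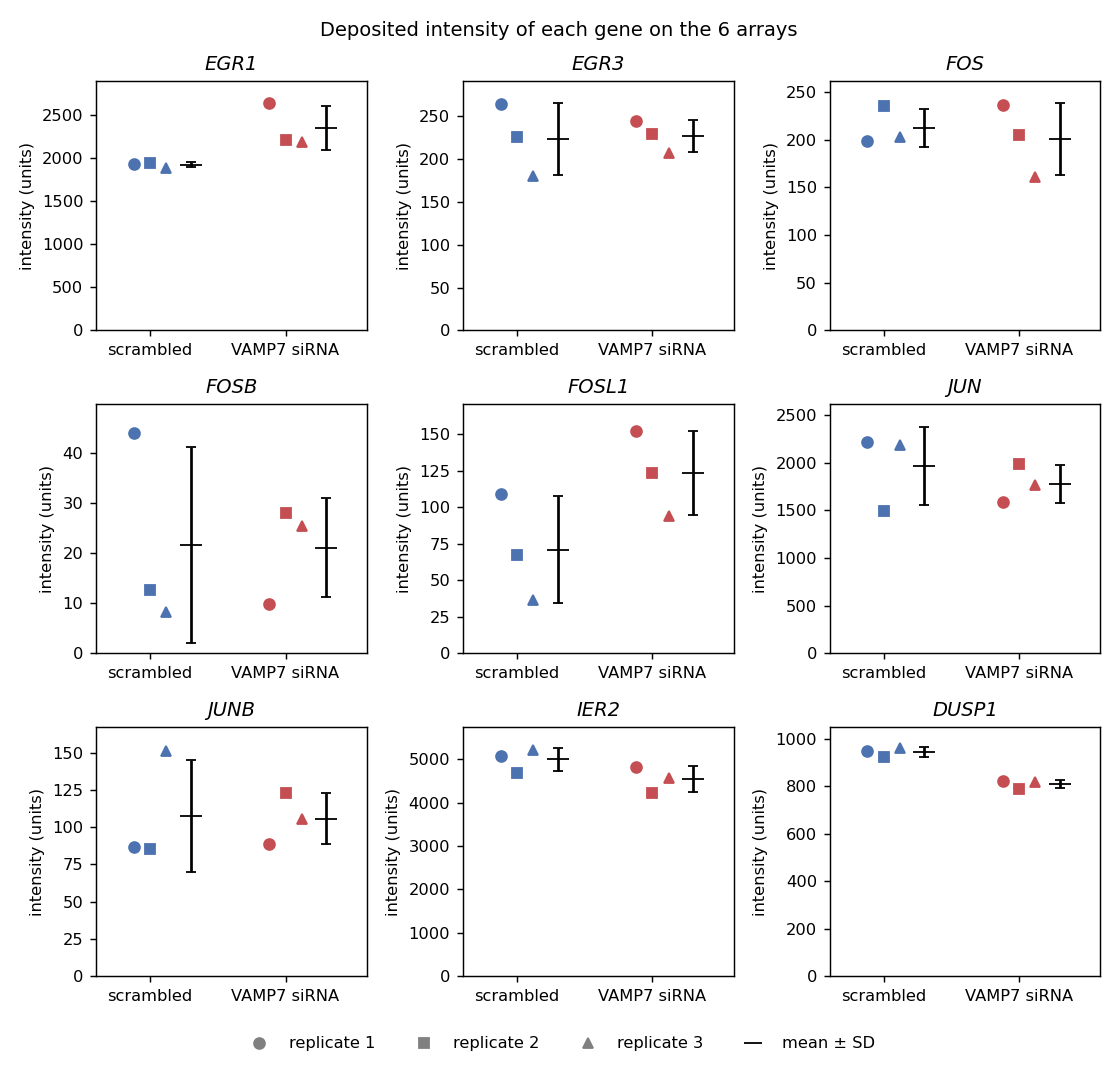
Deposited intensity (linear units, axes from 0) of the 9 measured genes on each array, scrambled in blue and VAMP7 siRNA in red, with marker shapes for replicate numbers and bars for mean ± SD (n = 3). The groups separate for EGR1 (all knockdown arrays at 2179 or above, all control arrays at 1943 or below) and for DUSP1 (822.0 or below against 921.1 or above), and overlap for the other 7.

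EGR1, a zinc finger factor often used as a readout of recent growth factor signalling, gave the highest fold change among the 5 brighter genes. Its brightest probe set, 201694_s_at, read 1925, 1943 and 1887 on the scrambled arrays and 2637, 2210 and 2179 on the knockdown arrays. Control arrays lay within a narrow band, the knockdown arrays all lay above it, and knockdown replicate 1 stood highest. The means were 1918 ± 28.7 and 2342 ± 256 (SD, n = 3), 22.1% higher in knockdown, with a log2 fold change of 0.28 (SE 0.11, 95% interval 0.02 to 0.53, adjusted p = 0.727 in limma). Without knockdown replicate 1 the fold change was 0.19.

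The other EGR1 probe sets gave smaller differences. Probe set 227404_s_at read 796.0, 674.7 and 772.9 in control and 886.0, 846.8 and 881.3 in knockdown, again without overlap (log2 fold change 0.21, adjusted p = 0.783 in limma over all 41091 probe sets). Here knockdown replicate 1 did not stand apart from the other knockdown arrays. Probe set 201693_s_at read 350.9, 425.3 and 403.9 in control and 414.4, 430.1 and 344.0 in knockdown, so the groups overlapped throughout (0.0075, adjusted p = 0.996), and its sign turned with another scaling of the arrays. The mean of the 3 probe sets gave 0.16. EGR1 was thus higher on all knockdown arrays by 2 of its 3 probe sets and by neither after adjustment.

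EGR3, a relative of EGR1 that is itself induced by growth factors and neuronal activity, had 1 probe set. It read 263.6, 225.2 and 179.8 on the scrambled arrays and 243.8, 229.0 and 206.9 on the knockdown arrays. All 3 knockdown values fell inside the control range (log2 fold change 0.03, SE 0.14, 95% interval -0.29 to 0.35, adjusted p = 0.980 in limma), and the sign turned below 0 with median centring or quantile normalization. In fold terms the interval spans 0.816 to 1.27, on the scale with the offset. Among the relatives and partners of this family, EGR4 read 68.5, 59.6 and 94.9 in control and 46.9, 63.2 and 69.9 in knockdown (adjusted p = 0.856 in limma). The corepressors NAB1 and NAB2 were at 0.05 and 0.03 (adjusted p = 0.945 and 0.976 in limma). EGR4, NAB1 and NAB2 were picked for their roles.

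FOS, the prototype partner of JUN in AP-1, was dim in these cells after 72 h of transfection. It read 198.4, 235.0 and 202.8 in control and 236.0, 204.7 and 161.0 in knockdown. Knockdown replicate 1 was the highest of the 6 arrays and knockdown replicate 3 the lowest, so the control arrays lay inside the knockdown range. The difference came to -0.07 on the log2 scale (SE 0.14, 95% interval -0.40 to 0.25, adjusted p = 0.940 in limma) and turned to 0.05 without knockdown replicate 3.

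FOSB, which pairs with JUN proteins and is known for its stable truncated form in neurons, read 44.1, 12.6 and 8.36 in control and 9.81, 28.1 and 25.5 in knockdown. These values lie below the offset of 50 and below the median of every array. One control array was higher than all others, and the groups overlapped (log2 fold change 0.01, SE 0.20, adjusted p = 0.995 in limma; the sign turned with median centring). The 95% interval, -0.47 to 0.50, leaves room for a change in either direction.

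FOSL1, the FRA1 subunit that follows FOS with a delay after stimulation, had the highest fold change of the 9. It read 109.3, 67.1 and 36.8 on the scrambled arrays and 152.1, 123.5 and 94.3 on the knockdown arrays. The lowest knockdown array lay below the highest control array, so the groups overlapped. The control arrays alone spanned more than the distance between the group means. In both groups the readings fell from replicate 1 to replicate 3, and each knockdown array lay above the same-numbered control array. With the replicate number added to the limma model the unadjusted p was 0.00629, against 0.0520 without it, and the adjusted p was 0.775. Whether same-numbered arrays belong together is not given by the labels. The means were 71.1 ± 36.4 and 123.3 ± 28.9 (SD, n = 3), with a log2 fold change of 0.55 (SE 0.23, 95% interval -0.0061 to 1.10, adjusted p = 0.745 in limma). It was 0.33 without scrambled replicate 3 and 0.77 without scrambled replicate 1. FOSL2, its closest relative, which was picked for that kinship, averaged 325.2 ± 43.0 on scrambled and 373.0 ± 77.6 on knockdown arrays (SD, n = 3; adjusted p = 0.882 in limma).

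JUN, the main DNA-binding partner of the FOS proteins and a substrate of JNK, was measured by 4 probe sets. The brightest, 201464_x_at, read 2222, 1498 and 2190 in control and 1583, 1985 and 1763 in knockdown. Scrambled replicate 2 was the lowest array and scrambled replicates 1 and 3 the highest, so the knockdown arrays lay inside the control range. The means were 1970 ± 409 and 1777 ± 202 (SD, n = 3), with a log2 fold change of -0.13 (SE 0.17, 95% interval -0.54 to 0.28, adjusted p = 0.908 in limma). It ran from -0.31 without scrambled replicate 2 to -0.03 without scrambled replicate 1. The suffix _x_at marks a probe set with probes that can match other transcripts.

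A second JUN probe set, 201466_s_at, read 391.9, 279.3 and 386.9 in control and 331.1, 318.1 and 356.3 in knockdown, with scrambled replicate 2 again the lowest array (log2 fold change -0.05, turning above 0 without scrambled replicate 1 or 3). Probe set 201465_s_at read 154.1, 157.6 and 186.0 against 151.4, 113.8 and 97.9. Its groups did not overlap, by a gap of 2.67 units (log2 fold change -0.35, adjusted p = 0.756 in limma). Probe set 213281_at read 104.3, 90.9 and 116.9 against 72.0, 122.3 and 113.4 and overlapped (-0.03, adjusted p = 0.986 in limma, turning to 0.04 with array weights). Scrambled replicate 2 was the lowest control array on 3 of the 4 probe sets, and the knockdown arrays all lay below control on 1.

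JUNB, an AP-1 subunit that can oppose JUN, read 86.5, 85.3 and 150.9 in control and 88.5, 123.1 and 105.6 in knockdown. Scrambled replicate 3 was the highest of the 6 arrays, and all knockdown arrays fell inside the control range. On the log2 scale the groups differed by 0.0025 (SE 0.18, 95% interval -0.42 to 0.43, adjusted p = 0.999 in limma), 0.19 without scrambled replicate 3, and below 0 with median centring, quantile normalization or an offset of 100. JUND, the JUN relative that is expressed without a stimulus in most cells and was picked for that reason, averaged 8650 ± 571 on scrambled and 8694 ± 347 on knockdown arrays (SD, n = 3; adjusted p = 0.992 in limma).

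IER2, a nuclear protein induced with FOS and EGR1, read 5082, 4687 and 5213 on the scrambled arrays and 4827, 4229 and 4568 on the knockdown arrays. Only knockdown replicate 1 reached into the control range. The means were 4994 ± 274 and 4541 ± 300 (SD, n = 3), with a log2 fold change of -0.14 (SE 0.10, 95% interval -0.37 to 0.10, adjusted p = 0.841 in limma). In fold terms the interval spans 0.773 to 1.07. The sign was below 0 in each of the 16 alternative settings, from -0.18 to -0.09, the latter without knockdown replicate 2.

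DUSP1, the dual-specificity phosphatase that switches off p38, JNK and ERK, showed the tightest replicates of the list. Probe set 201041_s_at read 947.7, 921.1 and 960.0 in control and 822.0, 789.3 and 817.5 in knockdown. Every knockdown array lay below every control array, with a gap of 99.1 units. The means were 942.9 ± 19.9 and 809.6 ± 17.7 (SD, n = 3), a ratio of 0.859 that did not pass the test (log2 fold change -0.21, SE 0.09, 95% interval -0.41 to -0.0065, adjusted p = 0.740 in limma). The SE comes from a spread that limma draws towards that of all genes, and it exceeds what the arrays of DUSP1 alone would give. For genes of wide spread the same step works the other way. The SE of FOSL1 is below what its own arrays would give.

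The other DUSP1 probe sets did not show this pattern. Probe set 226578_s_at read 8.70, 81.5 and 28.5 in control and 28.0, 104.1 and 39.2 in knockdown, and 201044_x_at read 5.37, 34.2 and 3.06 against 5.84, 44.4 and 10.6. On both, replicate 2 was the highest array of either group, and the groups overlapped (log2 fold changes 0.27 and 0.12, adjusted p = 0.914 and 0.955 in limma). Averaging the 3 probe sets turned DUSP1 to 0.06. Their mean intensities were 48.3 and 17.2, below the offset of 50.

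**Figure D2:**
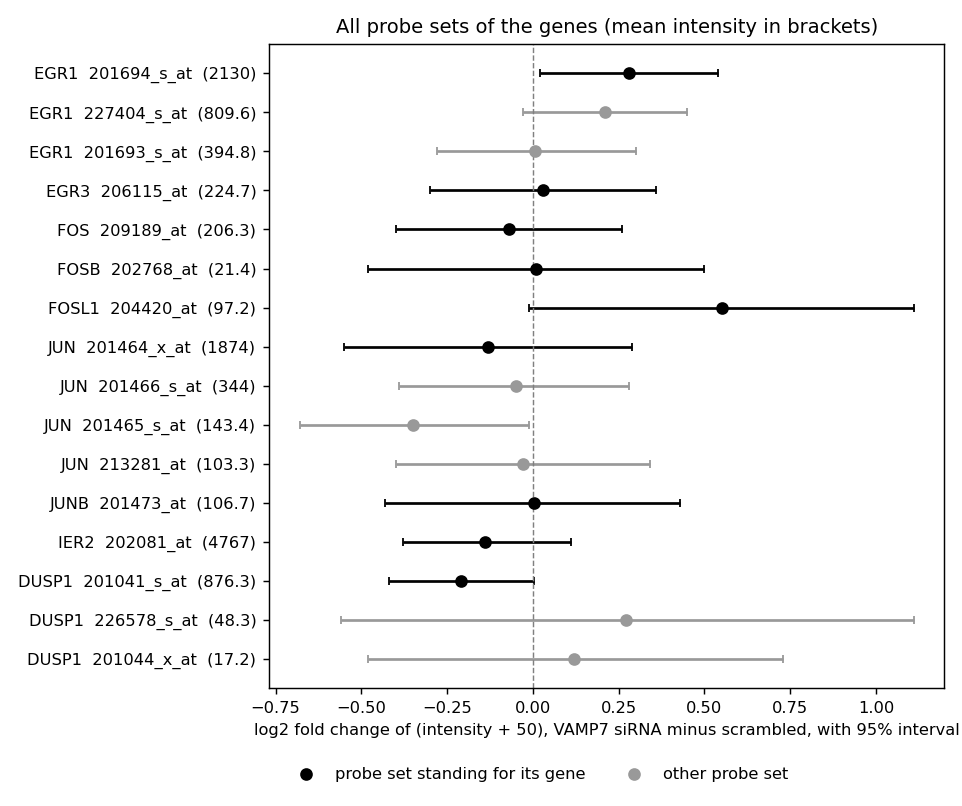
Log2 fold change of (intensity + 50), VAMP7 siRNA minus scrambled, for all 16 probe sets, with 95% intervals from limma fitted over 41091 probe sets; black marks the probe set that stands for its gene and brackets hold mean intensity. Intervals leave out 0, before adjustment, for EGR1 201694_s_at and JUN 201465_s_at, and none of the 16 passed after adjustment.

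Over the 16 probe sets, limma called 0 at an adjusted p under 0.05, against 0.00243% of all 41091, with 0.752 the smallest adjusted p. At an unadjusted p under 0.05 there were 2, EGR1 201694_s_at and JUN 201465_s_at, against 6.60% of all probe sets (3.91% higher and 2.69% lower). Of the 16, 9 had a fold change above 0, as 52.8% of all probe sets did. The groups did not overlap for 2 on the higher side, both of EGR1, and 2 on the lower side, of JUN and DUSP1, against 7.03% and 5.47% of all probe sets. Probe sets of 1 gene are not independent, since they read the same RNA.

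**Figure D3:**
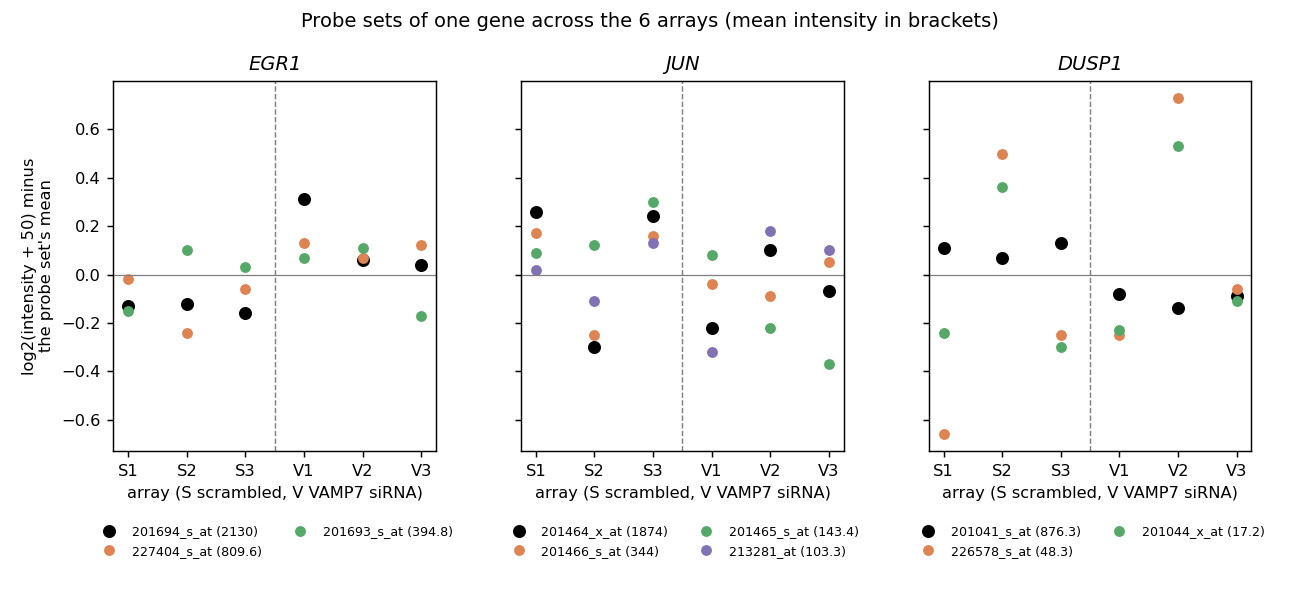
Each probe set of EGR1, JUN and DUSP1 on the 6 arrays, as log2(intensity + 50) minus the probe set's own mean; S1 to S3 are scrambled and V1 to V3 VAMP7 siRNA replicates. For EGR1 the 2 brighter probe sets lie above 0 on every knockdown array, for JUN they are lowest on scrambled replicate 2, and for DUSP1 the 2 dim probe sets peak on replicate 2 of each group while the bright one does not.

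The arrays did not share one direction across the 9 genes. Scrambled replicate 1 was the highest array for 3 genes (EGR3, FOSB and JUN), scrambled replicate 3 for 3 (JUNB, IER2 and DUSP1) and knockdown replicate 1 for 3 (EGR1, FOS and FOSL1). Scrambled replicate 3 was also the lowest array for 4 genes, EGR1, EGR3, FOSB and FOSL1. Averaged over the 9 genes after subtracting each gene's own mean, the arrays ran from -0.09 on scrambled replicate 2 to 0.10 on scrambled replicate 1 on the log2 scale. The median over all genes moved from -0.01 to 0.02 between arrays. No array was therefore raised or lowered for all the genes together.

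**Figure D4:**
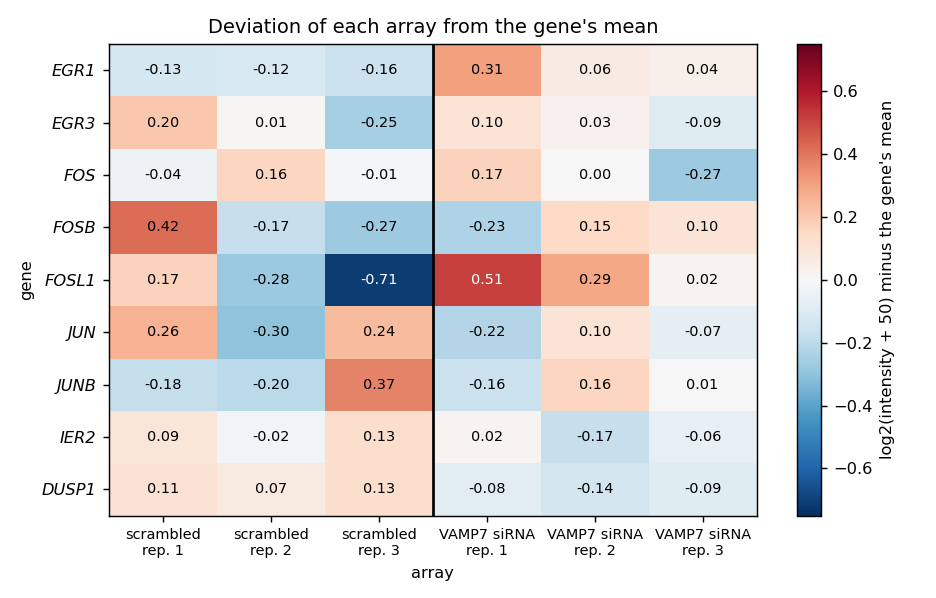
Log2(intensity + 50) of each gene on each array minus the gene's mean over the 6 arrays; the black line parts scrambled from VAMP7 siRNA arrays. EGR1 is below its mean on all control arrays and DUSP1 above it, while no column has a single colour.

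The spread between replicates differed widely among the genes. The SD within groups on the log2 scale was 0.03 for DUSP1, 0.09 for IER2, 0.11 for EGR1, 0.17 for EGR3 and 0.25 for JUN, beside a median of 0.13 over the 9888 genes at or above the median gene. DUSP1 stood at percentile 0.880 of those genes and JUN at percentile 91.7. For the dimmer genes it was 0.17 for FOS, 0.26 for JUNB, 0.30 for FOSB and 0.35 for FOSL1, where the median of dim genes was 0.24. As a list, the immediate early genes were spread on both sides of the medians, 3 of the 5 brighter genes below theirs and 3 of the 4 dimmer ones above. These counts depend on the cut at the median gene (224.0 units). EGR3 and FOS, at 224.7 and 206.3 units, had the same SD of 0.17 but fell at percentiles 73.7 and 27.8 of their sides.

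JUN, by its brightest probe set 201464_x_at, varied most over the 6 arrays among the brighter members (SD 0.23 on the log2 scale). The genes nearest to its pattern were IFT46, a subunit of the intraflagellar transport complex, WRN, the helicase mutated in Werner syndrome, and LGALS1, a galactose-binding lectin. Their values, centred on each gene's mean, differed from those of JUN by a root mean square of 0.0326, 0.0607 and 0.0621 over the 6 arrays, where the median of 9887 genes was 0.241. IFT46, for example, read 726.2, 498.9 and 714.9 in control and 502.1, 679.4 and 592.4 in knockdown, low on scrambled replicate 2 and knockdown replicate 1 as JUN was by that probe set. Of the other JUN probe sets, knockdown replicate 1 was the lowest knockdown array on 213281_at, but not on 201466_s_at or 201465_s_at. Among so many genes and only 6 arrays, close neighbours of any pattern are found.

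The wider immediate early response was equally without calls. Of 40 other genes of this class 38 were measured, 16 above 0 and 22 below (median log2 fold change -0.04). Above 0 were 50.8% of all genes. Limma called 0, against 0.00506% of all genes, and 0 had an unadjusted p under 0.05, against 6.66%. SGK1, a serum-induced kinase, read 481.9, 503.1 and 562.1 in control and 368.3, 437.1 and 462.0 in knockdown, without overlap (adjusted p = 0.752 in limma). CSRNP1, a nuclear factor induced by AXIN, read 511.3, 419.2 and 431.6 against 396.9, 393.8 and 357.3, also without overlap (log2 fold change -0.22, adjusted p = 0.777 in limma; -0.14 without scrambled replicate 1). PPP1R15A, the GADD34 subunit that restores translation after stress, read 233.8 ± 29.8 and 292.7 ± 42.6 (SD, n = 3). It differed by 0.27 on the log2 scale (adjusted p = 0.772 in limma), while its second probe set gave -0.06 and leaving out knockdown replicate 1 gave 0.17. These were the 3 of smallest unadjusted p. Over the 38 genes the groups did not overlap for 2 on the higher side (PLK2 and EDN1) and 2 on the lower side (SGK1 and CSRNP1). The shares of all genes were 6.68% and 6.29%. ATF3, which was picked because it pairs with JUN, was at -0.06 and NR4A1, an orphan nuclear receptor of the same response, at 0.02.

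Limma called 0 of the upstream factors and kinases, against 0.00506% of all genes. Of 35 listed, 27 were measured, 16 above 0 and 11 below (median 0.0021), where 50.8% of all genes were above 0. In limma 2 had an unadjusted p under 0.05, against 6.66% of all genes. The groups did not overlap for 1 on the higher side and 1 on the lower side, against 6.68% and 6.29% of all genes. MAPK3, the kinase ERK1, read 416.9, 453.6 and 453.8 in control and 536.2, 582.4 and 497.7 in knockdown, without overlap (log2 fold change 0.26, SE 0.10, adjusted p = 0.727 in limma). The single MAPK3 probe set, 212046_x_at, carries the _x_at suffix described above for JUN. MAPK9, the kinase JNK2, read 1265, 1219 and 1102 against 1005, 964.4 and 1013, also without overlap (-0.25, SE 0.10, adjusted p = 0.727), while its other probe sets gave 0.08 and -0.08. RPS6KA4, the kinase MSK2, was at 0.34 (adjusted p = 0.790) and dim, with 0.21 without scrambled replicate 1 and 0.54 without scrambled replicate 3. SRF, the factor that binds CArG boxes, averaged 567.8 ± 48.8 on scrambled and 553.9 ± 29.6 on knockdown arrays (SD, n = 3; adjusted p = 0.968 in limma). Its ETS partners ELK1, ELK3 and ELK4 were at -0.13, -0.17 and 0.07, and CREB1 at 0.21 (adjusted p = 0.818). SRF, these partners and CREB1 were picked for their roles.

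Feedback inhibitors and corepressors held 23 measured genes of 23, 14 above 0 and 9 below (median 0.02), where 50.8% of all genes were above 0. Limma called 0, against 0.00506% of all genes, and 0 had an unadjusted p under 0.05, against 6.66%. The smallest p in limma were those of ATF2 at -0.31 (adjusted p = 0.806), IER3 at -0.20 (0.825) and BATF3 at -0.14 (0.831). ATF2 is a CREB-family factor that pairs with JUN, and not itself a feedback inhibitor or corepressor. Averaging its probe sets turned ATF2 to 0.05, and its fold change was -0.16 without knockdown replicate 1 and -0.19 without scrambled replicate 3. IER3 was -0.31 without knockdown replicate 1 and -0.09 without knockdown replicate 3. DUSP6, a phosphatase specific for ERK and picked for its kinship with DUSP1, averaged 4869 ± 405 on scrambled and 4931 ± 303 on knockdown arrays (SD, n = 3; adjusted p = 0.982 in limma).

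Growth factor receptors, which stand at the head of these signals, were all measured, 9 of 13 above 0 (median log2 fold change 0.03), against 50.8% of all genes. Limma called 0, against 0.00506% of all genes, and 3 of the 13 had an unadjusted p under 0.05, 1 higher and 2 lower, against 6.66%. The groups did not overlap for 1 on the higher side and 2 on the lower side, against 6.68% and 6.29% of all genes. PDGFRA, the alpha receptor for PDGF, read 221.9, 181.4 and 213.4 in control and 85.7, 131.4 and 119.5 in knockdown, without overlap (log2 fold change -0.66, SE 0.14, adjusted p = 0.499 in limma). Its other probe sets gave -0.21, -0.11 and -0.0091, and their mean with it -0.25. IGF1R, the receptor of insulin-like growth factors, read 3363 ± 210 and 4089 ± 264 (SD, n = 3; 0.28, adjusted p = 0.721 in limma), with 0.06 for the mean of its probe sets. EGFR read 227.7 ± 34.1 and 170.4 ± 10.6 (-0.33, adjusted p = 0.724), with -0.05 for that mean.

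**Figure D5:**
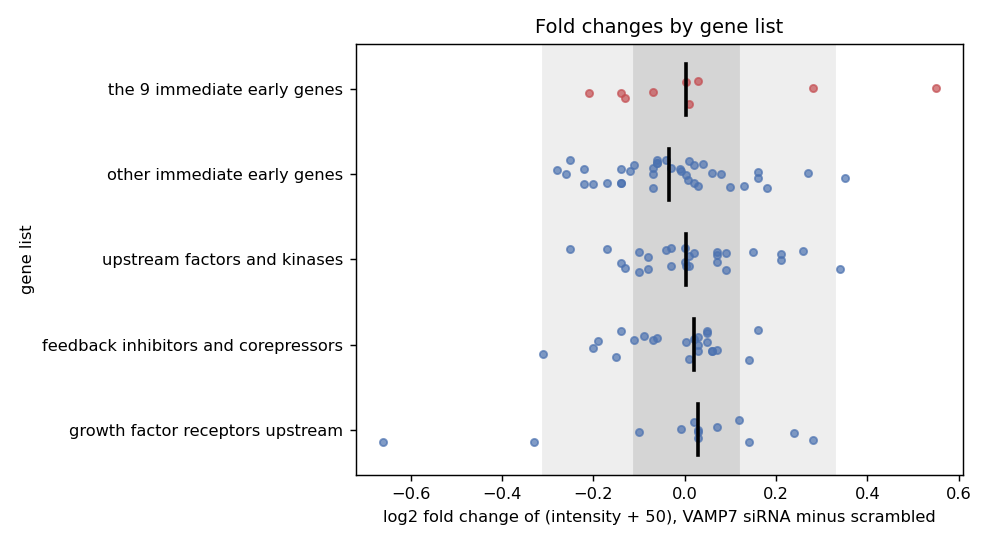
Log2 fold change of (intensity + 50), VAMP7 siRNA minus scrambled, of the 9 immediate early genes (red) and of the genes of 4 related lists (blue), 1 point per gene; black ticks are medians and the grey bands span the 25th to 75th and 5th to 95th percentiles of all 19775 genes (-0.11 to 0.12 and -0.31 to 0.33). FOSL1 at 0.55 is the only one of the 9 outside the outer band.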

How the data were processed

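Each sample was 1 array of a human 3' expression platform with 54675 probe sets. The authors deposited intensities on a linear scale, with a mean of 500.07 on every array once 2% of the values at each end were left out. RMA is named in the submitters' processing notes, with no version; it gives log2 values, which does not describe these. The software behind the intensities is not given in the sources used here. Depth has no counterpart on arrays, whose number limits the precision.

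Probe sets that name 1 gene (41091; 1801 named several and 11721 none) were renamed through gene identifiers to GRCh38.p14, with 41037 matched. The probe set of highest mean stood for its gene. Values were log2(intensity + 50), with the offset chosen from what was known of the scale. The groups were compared with limma 3.58.1 under R 4.3.3 (lmFit, eBayes) over all 19775 genes, and again over 41091 probe sets, with Benjamini-Hochberg adjustment and a threshold of 0.05. Exact permutation (two-sided) was not used, since with 3 arrays a group its smallest p is 0.1. The code was tested on simulated data.

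The genes and lists were chosen with earlier results of these data known. Named beyond the listed genes are VAMP7, the 3 of smallest unadjusted p in each list, the 3 nearest to the most variable brighter gene (uncharacterised loci, antisense genes and pseudogenes passed over), markers, and relatives picked for their roles afterwards. The alternatives were offsets of 16 and 100, a filter on dim genes, averaging each gene's probe sets, quantile normalization, median centring, an intensity trend, the robust option, array weights, the replicate block and the omission of each array.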

Additional observations from a re-analysis of the deposited data

How the results depend on the processing

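VAMP7 stayed called in all 16 alternatives (-3.96 to -3.42), and no listed gene or probe set of one was called in any (smallest adjusted p of a gene 0.505). With an offset of 16 or with probe sets averaged per gene 2 genes were called, VAMP7 and C19orf73, a gene named for that count. Genes of the list at an unadjusted p under 0.05 numbered 3 with an offset of 100 (EGR1, DUSP1 and FOSL1) and 1 with an offset of 16 (EGR1), median centring (DUSP1), the mean of probe sets or the replicate block (both FOSL1). They numbered 0 to 2 when an array was left out: 0 without scrambled replicate 2 or 3, FOSL1 alone without scrambled replicate 1, DUSP1 alone without knockdown replicate 1, EGR1 alone without knockdown replicate 2, and EGR1 and FOSL1 without knockdown replicate 3. Their median fold change was -0.13 with dim genes left out, which keeps 5 of the 9. The cause of the other changes was not tested. Deviations of same-numbered arrays correlated at -0.01, 0.09 and -0.07, and those of differently numbered arrays at -0.08 to 0.09. Such small values cannot decide whether the replicates were prepared in pairs, which the labels do not say. The replicate block called VAMP7 alone.

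EGR1, FOSL1, JUN and IER2 kept their sign throughout. EGR3 turned to -0.02 with quantile normalization or array weights and -0.0062 with median centring. FOSB turned to -0.02 with median centring. JUNB turned to -0.0014 with an offset of 100, -0.04 with quantile normalization and -0.03 with median centring. The mean of probe sets turned DUSP1 to 0.06 and ATF2 to 0.05. EGR1 probe set 201693_s_at turned to -0.02 with quantile normalization or array weights and -0.03 with median centring, and JUN 213281_at to 0.04 with array weights. Leaving out single arrays moved EGR3 from -0.09 to 0.14, FOS from -0.17 to 0.05, FOSB from -0.12 to 0.23 and JUNB from -0.09 to 0.19. It moved EGR1 201693_s_at from -0.06 to 0.09, JUN 201466_s_at from -0.19 to 0.02, JUN 213281_at from -0.12 to 0.13, DUSP1 226578_s_at from -0.02 to 0.59 and DUSP1 201044_x_at from -0.11 to 0.33. No detection calls were used, and the signal of FOSB and of the 2 dim DUSP1 probe sets lay below or near the offset of 50, which limits what they can show.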
